A study of Mus musculus with 18 samples.

Results

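Alveolar cells of the mouse mammary gland were compared between late pregnancy (day 18.5) and mid pregnancy (day 12.5). The cells were taken from 4 single-cell RNA libraries by a fixed rule: 500 or more detected genes, less than 20% of unique molecular identifiers (UMIs, counts of distinct captured RNA molecules) from the mitochondrial genome, more Krt8 and Krt18 UMIs than Krt5 and Krt14 UMIs, and 2 or more UMIs over the markers Elf5, Plet1, Trf, Cd14, Kit and Aldh1a3. It selected 20091 cells out of 43489 barcodes in these libraries and 149371 in all 18 libraries of the series. Of these, 6189 came from library H and 4971 from library G at day 12.5, and 6299 from library F4 and 2632 from library B4 at day 18.5. The barcodes per library equalled the numbers of cells in the labels.

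All 4 libraries were made from mammary epithelium of pregnant FVB/NJ mice with the 10x Genomics 3′ assay. The labels of these 4 libraries name no transgene, allele, agent or age, and the stage was the only difference they give between the groups. The adult FVB/NJ libraries used in some comparisons below were labelled as virgin, at 10 weeks of age. By the study's methods, stained cell suspensions were sorted to remove red blood, immune and endothelial cells and to keep CD24+ epithelium. Each library came from pooled mice, so replication was by library, with n = 2 per stage, and the p-values below measure only the spread between such pools. In a sum of cells, more RNA per cell and more expressing cells cannot be told apart.

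During pregnancy the luminal progenitors of the mammary ductal tree give rise to alveolar cells, which prolactin, acting through its receptor and the transcription factor STAT5, together with progesterone, drives to multiply and then to make milk proteins, fat droplets and lactose. Caseins and whey proteins leave the cell by the secretory route from the endoplasmic reticulum (ER), whereas milk fat is budded from the cell surface inside a membrane. Proliferation dominates the middle of pregnancy, and secretory differentiation its end.

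The alveolar cells carried a median of 7119 (H), 7347 (G), 6527 (F4) and 12224.5 (B4) UMIs, and between 31652821 and 48515621 UMIs were summed per library. The day 12.5 libraries resembled each other more closely than the day 18.5 libraries did: the median absolute log2 difference over genes was 0.0866 between H and G and 0.236 between F4 and B4. Counts differed between the members of each pair by more than counting noise (chi-square per degree of freedom of 20.1 and 154.8), so neither pair looked like copies of 1 library. Shared cell barcodes between libraries numbered 81 to 253 per pair, near the 88.1 to 235.5 expected by chance from the kit's barcode list. Levels are stated as scaled CPM, counts per mega-UMI of library size after edgeR's TMM scaling. A change is the log2 difference, day 18.5 minus day 12.5, with its standard error (SE), and a gene was called at an adjusted p below 0.05 in edgeR's quasi-likelihood test over all genes.

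The 6 marker and 4 keratin genes of the rule are given as a description, with no test. Trf, which encodes the iron carrier transferrin, was at 1841 (H) and 2184 (G) scaled CPM at day 12.5 and at 13369 (F4) and 17601 (B4) at day 18.5. Elf5, the transcription factor of alveolar fate, was at 222 and 219 and then at 336 and 309. Cd14, a receptor for bacterial lipopolysaccharide, was at 44.4 and 42.3 and then at 176 and 195. The keratin genes Krt8 and Krt18 ran from 713 to 1084 scaled CPM and Krt5 and Krt14 from 9.62 to 253. Plet1 ran from 670.5 to 784 scaled CPM over the 4 libraries, Kit from 9.22 to 25.5, and Aldh1a3 from 5.31 to 9.57. The markers Csn3, Lcn2, Mfge8, Ltf, Wfdc18, Cldn3, Epcam and Ehf, which the rule did not use, were all measured, and together they held 24399 (H), 24631 (G), 44824 (F4) and 50997 (B4) scaled CPM. Of these 8 markers 4 rose and 1 fell (25.4% of all genes tested were called), and 4 rose and 3 fell with library size as the only scaling. Not all were lower in basal cells (more Krt5 and Krt14 than Krt8 and Krt18 UMIs), which were scaled separately. There Lcn2 was at 223% (H), 209% (G), 136% (F4) and 117% (B4) of the alveolar level. Mfge8 was at 89.4%, 84.7%, 31.9% and 17.6%, and Csn3, Ltf and Wfdc18 lay between 4.38% and 16.6%.

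A minority of the selected cells carried little milk RNA. Cells in which the 9 milk protein genes held less than 5% of the UMIs made up 8.26% (H), 9.66% (G), 7.45% (F4) and 10.1% (B4) of the alveolar cells. At day 18.5 they formed a separate peak, at a milk share from 2.5% to 5% in F4 and below 2.5% in B4. Pooled over the non-epithelial cells of the same libraries, the milk share was 4.88% in F4 and 3.00% in B4. Of these low-milk cells at day 18.5, 51.8% (F4) and 50.2% (B4) had 2 or more UMIs of mature luminal markers. Per cell, these UMIs were counted over Pgr, Esr1, Areg, Cited1, Ly6a and Foxa1 only. In both libraries, 88.7% of the low-milk cells had these or 10 or more UMIs of basal markers. At day 12.5 this last share was 41.3% (H) and 61.3% (G). Trf alone had admitted 39.4% (F4) and 45.7% (B4) of the low-milk cells, against 2.94% (H) and 10.6% (G). The fit was repeated without the low-milk cells, a comparison that was added after the data were seen, and the calls of Cited1, Cldn10, Dcn, H2-Ab1, Itga2, Plin4, Prom1 and Rpl29 were lost in it.

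**Figure D1:**
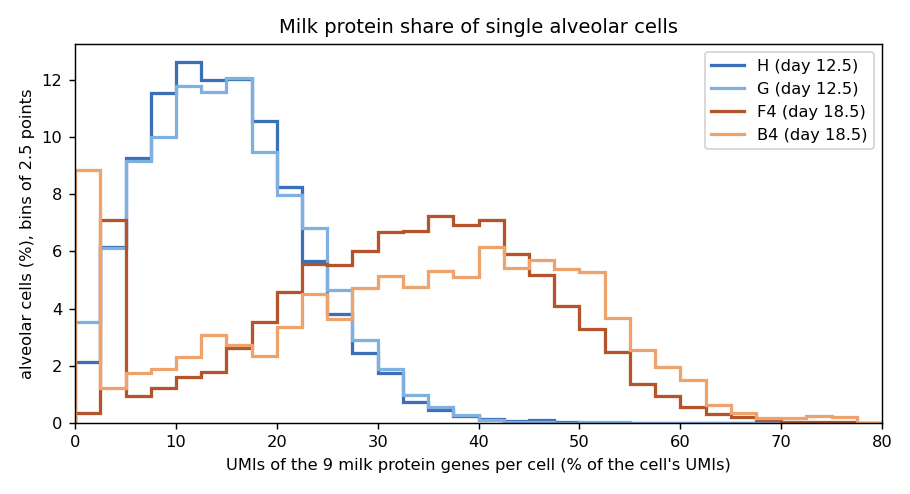
Share of each alveolar cell's UMIs that belong to the 9 milk protein genes (x axis, %) against the share of alveolar cells (y axis, %, bins of 2.5 points), 1 line per library. The day 12.5 libraries had their medians at 14.2% and 14.6%, and the day 18.5 libraries at 33.4% and 34.9%, with a further low peak at the left edge.

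Milk protein transcripts took 15.1% (H) and 15.5% (G) of all alveolar UMIs at day 12.5 and 34.6% (F4) and 36.2% (B4) at day 18.5. The means were 15.3% ± 0.280 and 35.4% ± 1.15 (SD, n = 2 each), a ratio of 2.31, and the libraries of the stages lay far apart. The exact two-sided permutation test gave p = 0.333, the smallest that 2 against 2 libraries allow. Cells with more than 25% milk UMIs were 9.69% (H) and 11.4% (G) of the alveolar cells at day 12.5 and 70.7% (F4) and 67.9% (B4) at day 18.5. Cells with more than 50% were at most 0.0402% of the alveolar cells in either day 12.5 library, and were 9.30% (F4) and 16.6% (B4) at day 18.5. In basal cells, the contractile outer layer, the same genes took 1.47% (H), 1.24% (G), 6.58% (F4) and 2.57% (B4). The part of free RNA in the basal values was not tested.

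Of 13435 genes tested in the alveolar sums, 3412 (25.4%) were called, 1754 (13.1%) higher and 1658 (12.3%) lower at day 18.5. The libraries of the stages did not overlap for 68.5% of the genes. More than a 2-fold change was seen for 1062 of the called rises and 806 of the called falls. With library size as the only scaling, the median of all genes moved by -0.41 on the log2 scale, and 975 of 5591 calls were rises. Levels are therefore relative to the bulk of the alveolar transcriptome. When adult and lactation libraries entered the same fit, 74 genes were called, and the same fit without the adult library P7 gave 884. Leaving out 1 library gave 977 calls without H, 1168 without G, 6920 without F4 and 6891 without B4.

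Among the milk proteins, 8 of 9 rose, against 13.1% of all genes tested. The median log2 change was 1.74 over the list (all genes tested, -0.01). The gene for whey acidic protein, Wap (chr11:6635482-6638637), was at 830 (H) and 946 (G) scaled CPM and reached 32696 (F4) and 41978 (B4), a 42.0-fold rise (log2 5.39 ± 0.27 SE, adjusted p = 0.00218). Lalba, whose product alpha-lactalbumin turns galactosyltransferase into lactose synthase, went from 128 and 163 to 2184 and 3085 (log2 4.18 ± 0.29 SE, adjusted p = 0.00258). Glycam1, a mucin-like milk protein, went from 6912 and 7488 to 38116 and 43755 (log2 2.51 ± 0.21 SE). In each of these genes both day 18.5 libraries lay above both day 12.5 libraries.

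The 5 casein genes lie in 1 cluster on chromosome 5, from Csn1s1 (start at 87666208) to Csn3 (end at 87932665), and they rose to very unequal extents. Csn2, which encodes beta-casein, was at 37860 (H) and 39453 (G) and at 116502 (F4) and 127242 (B4) scaled CPM, a 3.15-fold rise. Csn1s1 rose 2.71-fold, Csn1s2a 2.44-fold and Csn3, the kappa-casein that stabilises the micelle, 3.35-fold, with adjusted p-values of 0.0053 to 0.00983 for these 4 genes. Csn1s2b, in the same cluster, was at 14.8 (H) and 12.6 (G) and then at 278.5 (F4) and 497 (B4), a 28.3-fold rise (adjusted p = 0.00264). Its rise of 4.82 ± 0.35 on the log2 scale stood beside rises of 1.29 to 1.74 with SEs of 0.19 to 0.20 for its neighbours. Csn2, Csn1s1, Csn1s2a and Csn3 were no longer called without H or without G, where their log2 changes lay between 1.27 and 1.74. The list then had 4 rises.

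Wfdc18, a secreted whey-type protein, was the member that did not pass the test. It was at 15495 (H) and 15646 (G) scaled CPM at day 12.5, and at 16709 (F4) and 25402 (B4) at day 18.5 (log2 0.44 ± 0.26 SE, adjusted p = 0.26). The milk protein genes thus fell into those already at or above 6708 scaled CPM at mid pregnancy, which rose 2.44 to 5.69-fold or, for Wfdc18, did not pass the test, and those at or below 946, which rose 18.2 to 42.0-fold.

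**Figure D2:**
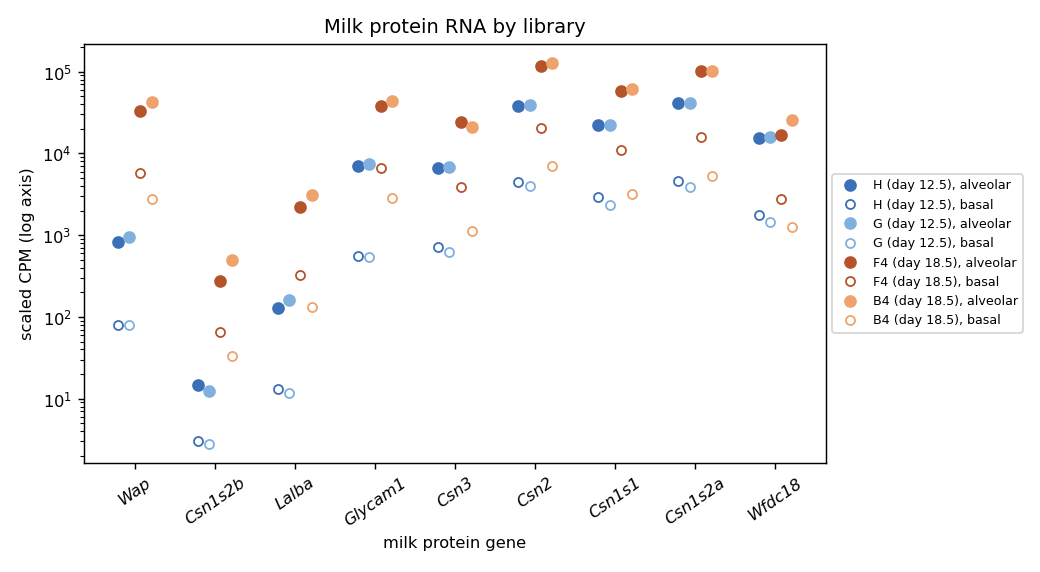
Scaled CPM (log axis) of the 9 milk protein genes in the alveolar sums (filled points) and basal sums (open points) of each library, ordered by log2 change. Alveolar and basal sums were scaled in separate fits. Wap, Csn1s2b and Lalba moved furthest, Wfdc18 least, and the basal points followed the alveolar ones at a lower level.

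Promoter sequence is shown for the milk protein genes with a STAT5-type motif upstream, since STAT5 carries the prolactin signal to these genes. The motif TTCNNNGAA, which is its own reverse complement, was searched in RefSeq windows (GRCm38.p6) from 250 bases before to 50 bases after each transcription start. Of 7 milk protein genes with a window, 4 held it, and in 3 it lay upstream of the start. The 250 bases before the start of these 3 genes are given 5′ to 3′ in the direction of transcription, with the motif in capitals.
Csn1s1, chr5:87665958-87666207 (+ strand): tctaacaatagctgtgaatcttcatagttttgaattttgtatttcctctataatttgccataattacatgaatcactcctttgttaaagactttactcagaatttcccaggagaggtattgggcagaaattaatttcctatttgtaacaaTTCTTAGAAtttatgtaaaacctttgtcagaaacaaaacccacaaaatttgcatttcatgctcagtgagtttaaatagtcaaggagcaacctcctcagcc
Csn2, chr5:87699426-87699675 (- strand): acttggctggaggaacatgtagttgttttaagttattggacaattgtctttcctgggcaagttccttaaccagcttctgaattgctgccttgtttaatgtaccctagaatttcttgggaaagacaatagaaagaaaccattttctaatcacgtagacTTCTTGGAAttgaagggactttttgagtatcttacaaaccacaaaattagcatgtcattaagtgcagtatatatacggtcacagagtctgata
Glycam1, chr15:103565082-103565331 (- strand): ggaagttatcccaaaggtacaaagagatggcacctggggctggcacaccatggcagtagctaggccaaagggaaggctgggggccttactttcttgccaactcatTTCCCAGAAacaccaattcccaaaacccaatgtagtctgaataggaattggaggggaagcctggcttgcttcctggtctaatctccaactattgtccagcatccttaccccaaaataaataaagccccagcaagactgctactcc
The motif began 100 bases before the start in Csn1s1, 93 in Csn2 and 145 in Glycam1. The windows of Wap, Lalba and Wfdc18 held no match. Over the genes with a window, the motif was present in 9.31% of 1321 genes called higher, 7.23% of 1300 called lower and 8.23% of 10167 tested, so the called rises stood close to the background. Of the 12 genes with the largest rises, 8 had a window and none of these held the motif.

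Beyond the milk proteins, the largest rises among genes with 20 or more scaled CPM at day 18.5 and libraries that did not overlap were those of Car4, Atp2b2, Bmp3, Ccdc74a, Lao1, Cidea, Saa2, Saa1, Lpo and Sftpd, besides Wap and Csn1s2b. Car4, a membrane-bound carbonic anhydrase, was at 0.250 (H) and 0.264 (G) scaled CPM and at 27.6 (F4) and 51.3 (B4), 152-fold higher at day 18.5 (adjusted p = 0.00237). Atp2b2, the plasma membrane pump that exports calcium into milk, was at 0.197 and 0.264 and then at 20.9 and 33.5, 118-fold higher (adjusted p = 0.00218). Bmp3 was at 0.572 and 1.32 and then at 27.4 and 38.8. Ccdc74a was at 0.858 and 0.749 and then at 20.6 and 23.4. Lao1, an L-amino acid oxidase that releases antibacterial hydrogen peroxide into milk, was at 67.3 and 70.5 and then at 1457 and 1977. These genes were named for the size of their change and for libraries that did not overlap, so their separation by stage is a description.

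The genes of the milk fat globule and the lipid droplet rose in 12 of 16 members tested and fell in none. The median log2 change was 1.86, and 13.1% of all genes tested rose. Cidea, which is required for the secretion of milk lipid, was at 26.8 (H) and 24.8 (G) scaled CPM and at 541 (F4) and 634 (B4), a 22.8-fold rise (log2 4.51 ± 0.21 SE, adjusted p = 0.00218). After each cell was thinned to 1500 UMIs, Cidea was detected in 4.10% (H) and 4.05% (G) of alveolar cells and in 39.9% (F4) and 40.8% (B4). In basal cells of the same depth it was detected in 0.395% (H), 0.245% (G), 7.83% (F4) and 3.93% (B4). Each basal share was below the alveolar share of its own library, but that of F4 exceeded the day 12.5 alveolar shares. The part of free RNA in these shares was not tested. Without thinning, the alveolar shares were 16.6%, 15.1%, 73.7% and 69.8% at the median depths given above, and the basal median depths were 3226, 3412.5, 1959 and 4002 UMIs. Mfge8, a coat protein of the milk fat globule, rose 5.41-fold, Rab18, a GTPase of lipid droplets, 4.84-fold, and Cd36, a fatty acid transporter, 4.69-fold.

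In fatty acid and triglyceride synthesis, 21 of 27 genes rose and none fell. The median log2 change was 1.28, and 13.1% of all genes tested rose. Lpl, the lipase that frees fatty acids from blood lipoproteins, was at 198 (H) and 209 (G) and at 852 (F4) and 1326 (B4) scaled CPM. Scd1, which desaturates stearate, went from 172 and 169 to 861 and 1096. Olah, the thioesterase that ends fatty acid chains early to give the medium-chain fats of milk, went from 31.7 and 30.4 to 204 and 134. Acacb, an acetyl-CoA carboxylase, went from 3.06 and 2.95 to 22.2 and 26.6, and had the largest rise of the list (log2 3.02 ± 0.16 SE, adjusted p = 0.00218). The count of rises was 11 without H and 11 without G.

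In cholesterol synthesis, 3 of 20 genes rose (13.1% of all genes tested rose), none fell, and the median log2 change was 0.07, which turned to -0.33 with 8 called falls when library size was the only scaling. Acat2, which condenses acetyl-CoA to acetoacetyl-CoA, went from 11.6 (H) and 11.6 (G) to 31.0 (F4) and 41.3 (B4) scaled CPM (adjusted p = 0.00466). Hsd17b7 went from 12.1 and 10.6 to 23.7 and 19.8, and Lss, lanosterol synthase, from 3.54 and 3.99 to 6.43 and 6.84. The summed level of the list was 420.0 (H), 406 (G), 461 (F4) and 469 (B4) scaled CPM. The sum for fatty acid and triglyceride synthesis was 1948, 1855, 6185 and 6619. The count of 3 rises was 1 without H and 1 without G, 9 without F4 and 6, beside 6 falls, without B4.

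For lactose, 6 of 12 genes of synthesis and glucose supply rose and none fell (median log2 0.75). Of all genes tested, 13.1% rose. B4galt1, the galactosyltransferase that makes lactose together with alpha-lactalbumin, was at 129 (H) and 136 (G) and at 537 (F4) and 656 (B4) scaled CPM, a 4.50-fold rise. Slc2a1, the glucose transporter GLUT1, rose 2.12-fold, Slc35a2, which carries UDP-galactose into the Golgi, 1.90-fold, and G6pdx, which supplies NADPH, 2.33-fold. The count was 1 without H and 1 without G, and 5 rises stood beside 2 falls when library size was the only scaling.

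Of 29 transporters of amino acids, ions and minerals tested, 16 rose and 2 fell (median log2 1.58), beside 13.1% and 12.3% of all genes. Apart from Atp2b2, the largest rises were those of Slc39a8, a zinc and manganese importer, Slc34a2, a sodium-phosphate cotransporter, and Fxyd2, a regulator of the sodium pump. Slc34a2 went from 8.95 (H) and 9.60 (G) to 93.1 (F4) and 154 (B4) scaled CPM, and Fxyd2 from 10.4 and 20.9 to 147 and 183. Slc39a8 went from 0.214 and 0.374 to 3.48 and 14.3, and its day 18.5 libraries differed 4-fold from each other. Fxyd2 was not called without F4 (adjusted p = 0.0867) or without B4 (adjusted p = 0.0934), nor Slc39a8 without H (adjusted p = 0.0846) or without G (adjusted p = 0.114).

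The milk defence proteins rose in 21 of 22 genes tested, with no fall and a median log2 change of 2.05. Of all genes tested, 13.1% rose. Sftpd, a collectin that binds microbial sugars, went from 11.7 (H) and 12.1 (G) to 267 (F4) and 232 (B4) scaled CPM (log2 4.39 ± 0.18 SE). Lpo, lactoperoxidase, which uses hydrogen peroxide against bacteria, went from 1.64 and 1.67 to 24.7 and 45.7. The acute-phase genes Saa1 and Saa2 went from 8.70 and 7.996 to 196 and 158, and from 9.49 and 8.55 to 239.8 and 144. These 2 genes are near-identical neighbours on chromosome 7, so reads may be split uncertainly between them. Ltf, lactoferrin, went from 92.6 and 98.1 to 306 and 311, and Lcn2, the siderophore-binding lipocalin, from 424 and 421 to 1105 and 1023. Without the cells under 5% milk share, 17 of the 21 genes then tested rose.

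**Figure D3:**
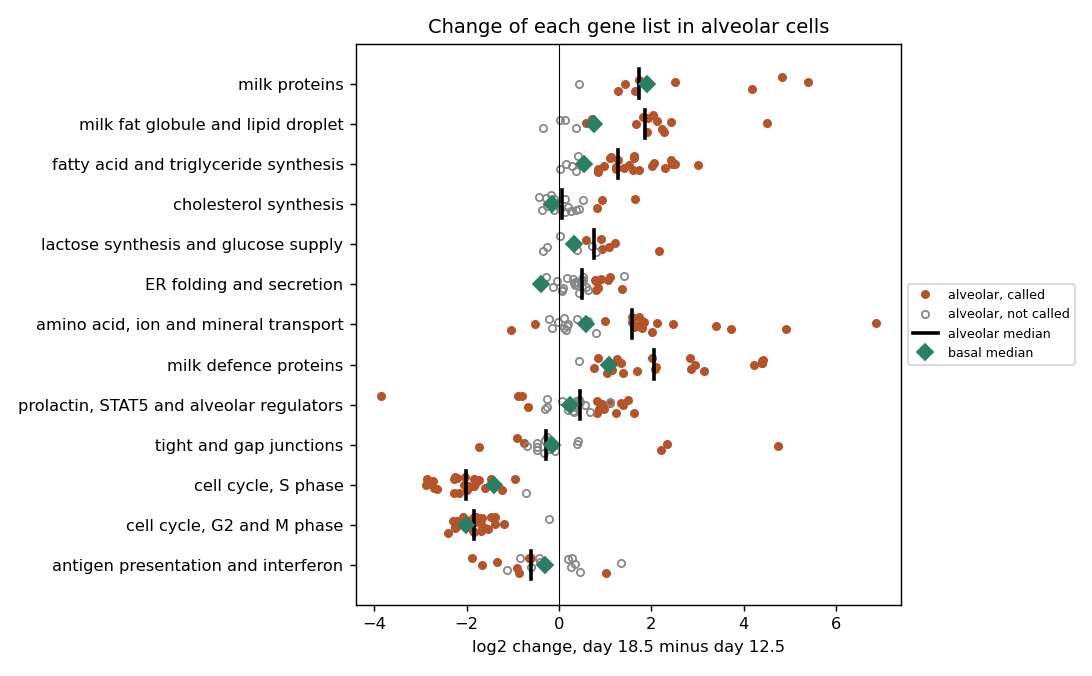
Log2 change (day 18.5 minus day 12.5) of each tested gene by list in alveolar cells, filled where called at an adjusted p below 0.05, with the alveolar median (bar) and the basal median (diamond). The synthesis and secretion lists lay to the right, cholesterol synthesis around 0, and the cell cycle lists to the left.

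For ER folding and secretion, 9 of 30 genes rose (13.1% of all genes tested rose) and none fell, with a median log2 change of 0.49. Xbp1, the transcription factor that expands the ER, was at 224 (H) and 230 (G) and at 581 (F4) and 594 (B4) scaled CPM, a 2.59-fold rise (adjusted p = 0.00644). Atf6, a sensor of ER load, rose 2.16-fold, Dnajc3, a co-chaperone, 2.10-fold, and Ddit3, a stress-induced factor, 1.89-fold. This count was sensitive to single libraries: it was 0 without H, 1 without G, 18 beside 5 falls without F4, and 27 beside 1 fall without B4. The summed level of the list was 4472 (H), 4538 (G), 6765 (F4) and 5675 (B4) scaled CPM. With library size as the only scaling, 3 genes rose and 1 fell, the median was 0.08, and the list's share of UMIs was 0.516% (H), 0.522% (G), 0.599% (F4) and 0.482% (B4).

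Among 30 genes tested of prolactin, STAT5 and alveolar regulation, 11 rose and 4 fell (median log2 0.45), against 7 and 5 (median 0.04) with library size as the only scaling. Of all genes tested, 13.1% rose and 12.3% fell. Prlr, the prolactin receptor, went from 39.6 (H) and 42.2 (G) to 113 (F4) and 116 (B4) scaled CPM (log2 1.48 ± 0.14 SE, adjusted p = 0.00367). Socs3, a feedback inhibitor of cytokine signals, rose 3.08-fold, and Irs1, an adaptor of the insulin and IGF receptors, 2.62-fold. The Socs3 level of basal cells was 1540% (H), 1185% (G), 1085% (F4) and 1777% (B4) of the alveolar level. The part of free or admixed basal RNA in the alveolar Socs3 values was not tested. Tnfsf11, the RANK ligand by which progesterone-responding cells make their neighbours divide, fell from 5.61 and 8.86 to 0.211 and 0.855 (adjusted p = 0.00912). The rises numbered 3 without H and 3 without G.

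Genes of luminal progenitors that the rule did not use moved in both directions, with 5 rises and 2 falls among 18 (13.1% of all genes tested rose and 12.3% fell; median log2 -0.11). The named members were low in all libraries: Cyp24a1, which degrades vitamin D, ran from 0.125 to 1.003 scaled CPM and Bmpr1b, a BMP receptor, from 0.340 to 2.38, both higher at day 18.5. Bmpr1b was not called without H (log2 1.40, adjusted p = 0.156) or with cells holding 2 or more mature luminal marker UMIs removed (log2 1.07, adjusted p = 0.165). Itga2, an integrin subunit, went from 3.23 (H) and 3.33 (G) to 0.817 (F4) and 1.78 (B4). Prom1 went from 0.679 and 0.551 to 1.502 and 2.56. With the low-milk cells removed, Itga2 was at a log2 change of -1.27 (adjusted p = 0.101) and Prom1 at 0.70 (adjusted p = 0.446). Prom1 was at 0.17 (adjusted p = 0.777) with the cells holding mature luminal marker UMIs removed. The balance of the list depended on the settings, with 3 rises and 7 falls with library size as the only scaling, 6 and 7 with no filter on low counts, 5 and 5 with the replicate block, 5 and 4 with DESeq2 and 5 and 0 with scaling outside the milk genes. The rises numbered 0 without H and 1 without G.

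Cell cycle genes fell together. In the S phase list, 23 of 24 genes fell and none rose, with a median log2 change of -2.01. Of all genes tested, 12.3% fell. Subunits of the MCM helicase that unwinds DNA fell: Mcm3 went from 14.5 (H) and 15.7 (G) to 1.95 (F4) and 2.16 (B4) scaled CPM, Mcm6 from 26.0 and 26.9 to 3.61 and 4.42, and Mcm5 from 19.4 and 20.9 to 2.93 and 3.57. Hells, a chromatin remodeller, fell 7.29-fold and Uhrf1, which maintains DNA methylation, 6.57-fold, both with an adjusted p of 0.00218. In the G2 and M phase list, 27 of 28 genes fell, with a median of -1.85. With the adult and lactation libraries sharing the estimate of spread, the falls numbered 2 in the S phase list and 0 in the G2 and M phase list with 9 libraries, and 16 and 3 with the adult library P7 left out. Cdc20, an activator of the anaphase-promoting complex, was at 45.5 and 50.8 and then at 9.62 and 9.88. Ccnb2 fell 4.75-fold, Kif23 4.76-fold and Aurkb, a mitotic kinase, 5.28-fold.

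Mki67, the proliferation marker in widest use, was the member of the G2 and M phase list that was not called, and is named for that reason after its values were seen. It was at 22.3 (H) and 19.9 (G) scaled CPM at day 12.5 and at 13.0 (F4) and 23.7 (B4) at day 18.5 (log2 -0.21 ± 0.28 SE, adjusted p = 0.621). After thinning, a Mki67 UMI was found in 3.41% (H), 2.89% (G), 1.56% (F4) and 2.06% (B4) of the alveolar cells, and before thinning in 14.7%, 13.4%, 5.86% and 13.1%. Thinning kept milk UMIs, whose share differed between the stages, and no order is read from these shares. In basal cells of the same libraries Mki67 went from 34.6 and 34.5 to 11.7 and 13.5. The change of Mki67 differed between alveolar and basal cells (interaction of 1.21 ± 0.23 SE on the log2 scale, adjusted p = 0.0228). In the G2 and M phase list, the alveolar minus basal log2 change was called positive for 4 genes and negative for 2. Of all genes, 9.89% were called in this test. Both classes fell over the list, so a positive value can be a smaller fall in alveolar cells. With library size as the only scaling, these counts were 1 and 6.

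The share of alveolar cells in cycle was counted after thinning each cell to 1500 UMIs outside the milk genes, as cells with 3 or more UMIs over the G2 and M phase list. It was 24.6% (H) and 25.5% (G) at day 12.5 and 4.29% (F4) and 4.66% (B4) at day 18.5, that is 25.04% ± 0.667 against 4.48% ± 0.259 (SD, n = 2 each). The mid-pregnancy share was 5.59 times the late one, with p = 0.333 in the exact two-sided permutation test, the smallest possible. Without thinning the shares were 58.6%, 58.1%, 9.81% and 17.6%. In basal cells the thinned shares were 21.1% (H), 22.05% (G), 3.58% (F4) and 4.06% (B4), again lower at day 18.5 in both libraries. Cells too shallow for thinning were left out, and 6158 (H), 4923 (G), 6101 (F4) and 2596 (B4) alveolar cells stayed.

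**Figure D4:**
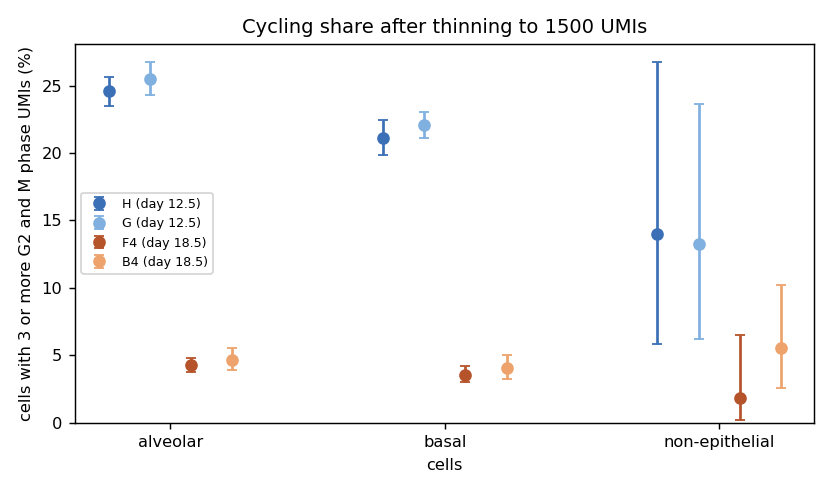
Share of cells with 3 or more UMIs over the G2 and M phase list after thinning to 1500 UMIs outside the milk genes, by cell group and library, with exact binomial 95% intervals that cover counting error only. Alveolar cells stood at 24.6% and 25.5% at day 12.5 and at 4.29% and 4.66% at day 18.5, and basal cells at 21.1%, 22.05%, 3.58% and 4.06%.

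Cycling cells carried milk RNA as well. Among the day 12.5 alveolar cells, the median milk share was 13.7% (H) and 14.2% (G) in cycling cells and 14.4% and 14.8% in the others. At day 18.5 it was 31.2% (F4) and 29.1% (B4) in cycling cells and 33.8% and 35.4% in the others. The cycling cells were lower in each of the 4 libraries, by less than the interquartile range of either group, and they held more UMIs (medians of 8482.5 to 15657 against 6562 to 12209). A further fit left out the cells with 3 or more UMIs over the G2 and M phase list before thinning. These were 58.6% (H), 58.1% (G), 9.81% (F4) and 17.6% (B4) of the alveolar cells. This fit gave 2208 calls, of which 2072 were among the 3412.

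The cyclins D and inhibitors of cyclin-dependent kinases gave 4 rises and 4 falls among 15 genes (13.1% of all genes tested rose and 12.3% fell). Ccnd1, the D-type cyclin needed for alveolar growth, went from 138 (H) and 137 (G) to 33.9 (F4) and 28.1 (B4) scaled CPM (log2 -2.15 ± 0.17 SE, adjusted p = 0.00279). Its partner kinase Cdk4 went from 186 and 176 to 73.3 and 68.1. Btg2, which restrains cell division, went from 303 and 317 to 920 and 633. Cdkn2b, a CDK4 inhibitor, was scarce throughout, at 0.0894 and 0.0881 and then 0.316 and 0.334. Its call was lost with DESeq2 (adjusted p = 0.177), with no filter on low counts (0.0571), with library size as the only scaling (0.0569) and with any 1 of the 4 libraries left out (0.0630 to 0.310). The rises numbered 2 with DESeq2 and with the low-milk cells removed, 1 with library size as the only scaling, and 0 without H and 0 without G.

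The largest falls among genes with 20 or more scaled CPM at day 12.5 and no overlap, apart from S phase genes, included those of replication-dependent histones and Gm266. Hist1h2ap was at 271 (H) and 186 (G) and then at 8.17 (F4) and 11.4 (B4) scaled CPM, and Hist1h2ak at 26.5 and 27.9 and then at 2.16 and 4.31. Gm266 went from 23.6 and 21.9 to 2.82 and 4.09. The histones have near-identical copies between which reads can be lost or split, so their values are uncertain.

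Of 81 ribosomal protein genes tested, 7 fell and none rose (8.64% called, against 12.3% of all genes called lower; median log2 -0.42), and 44 fell when library size was the only scaling. The list took 28.8% (H), 28.9% (G), 15.6% (F4) and 16.9% (B4) of the alveolar UMIs. Rps15a went from 5143 (H) and 5317 (G) to 1921 (F4) and 2605 (B4) scaled CPM, and Rpl22 from 1417 and 1526 to 591 and 773. Rpl29, at 479 and 264 and then at 167 and 157, also differed between the day 12.5 libraries. Without the low-milk cells it was at a log2 change of -1.11 (adjusted p = 0.0538). Rpl39l ran from 1.56 to 1.61 at day 12.5 and was at 0.105 and 0 at day 18.5. The falls numbered 1 without H, 2 without G, 49 without F4 and 46 without B4, and 25 with DESeq2.

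Nuclear genes of oxidative phosphorylation gave 3 falls and no rise among 79 (3.797% called, against 12.3% of all genes called lower; median log2 -0.18): Cox6b2, Ndufa12 and Atp5g2, of which Ndufa12 went from 226 (H) and 223 (G) to 125 (F4) and 126 (B4) scaled CPM. With library size as the only scaling 20 of them fell, and 1 fell without H or without G. Cox6b2 fell 2.62-fold and Atp5g2 1.58-fold. In edgeR, Atp5g2 lost its call with the replicate block (adjusted p = 0.0502) and with cycling cells left out (adjusted p = 0.0655). From the mitochondrial genome, 2 of 13 genes rose (15.4%, against 13.1% of all genes tested; median log2 0.78). These were mt-Co1, from 5178 and 4625 to 10760 and 13200, and mt-Cytb, from 3522 and 3207 to 5616 and 6994. The median mitochondrial share of UMIs per alveolar cell was 3.96% (H), 3.62% (G), 4.25% (F4) and 5.89% (B4). Leaving out either day 12.5 library left 0 called mitochondrial genes, leaving out F4 gave 11 rises and 1 fall, leaving out B4 gave 5 rises and 2 falls, and DESeq2 gave 7 rises.

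In the tight and gap junction list, 3 genes rose and 3 fell among 18 (13.1% of all genes tested rose and 12.3% fell). Cldn8, a barrier-forming claudin, went from 24.6 (H) and 21.7 (G) to 99.9 (F4) and 116 (B4) scaled CPM (log2 2.22 ± 0.16 SE, adjusted p = 0.00264). Cldn10, a pore-forming claudin, went from 1.47 and 2.60 to 11.6 and 8.70, and lost its call when the low-milk cells were removed (log2 0.76, adjusted p = 0.419). Cldn5, which is also the claudin of blood vessels, went from 0.107 and 0.0220 to 1.19 and 2.68. With library size as the only scaling, 11 genes of the list fell.

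Antigen presentation and interferon genes gave 7 falls and 1 rise among 19 (median log2 -0.60). Of all genes tested, 12.3% fell and 13.1% rose. Psmb9, a subunit of the immunoproteasome, went from 52.1 (H) and 51.4 (G) to 15.4 (F4) and 17.2 (B4) scaled CPM (adjusted p = 0.00286). Irf1, an interferon-induced factor, went from 23.8 and 27.9 to 65.7 and 38.5. H2-Ab1 and Ifit1 stood at or below 1.95 scaled CPM in each library, and H2-Ab1 was at a log2 change of -1.20 (adjusted p = 0.104) without the low-milk cells. The falls numbered 2 without H and 1 without G, and 12 with library size as the only scaling.

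Immediate early and heat shock genes, which also respond to tissue dissociation, rose in 9 of 23 members with no fall (median log2 0.98). Of all genes tested, 13.1% rose. Hspa1a, a heat-induced chaperone, was at 10.5 (H) and 10.8 (G) and at 216 (F4) and 46.9 (B4) scaled CPM, so the day 18.5 libraries differed more than 4-fold. Jun went from 238 and 257 to 812 and 479, Dusp1 from 107 and 122 to 314 and 278, and Ier3 from 134 and 142 to 424 and 349. The list's summed level was 7742 (H), 7675 (G), 13844 (F4) and 9635 (B4). In basal cells its median change was 0.67. None was called without H or without G, 20 rose without B4 and 13 with DESeq2, Hspa1a lost its call with the replicate block (adjusted p = 0.136), and the part of tissue handling in these values was not tested.

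Markers of other cells were checked in the alveolar sums. Of 11 basal markers tested, 0 were called by edgeR (1 at an unadjusted p below 0.05), 1 rose and 1 fell with DESeq2, and 2 fell with library size as the only scaling. Acta2, smooth muscle actin, ran from 571 to 1168 scaled CPM, and the list's summed level was 1166 (H), 1836 (G), 2328 (F4) and 1190 (B4). Of 10 mature luminal markers, which include Prlr and Tnfsf11, 5 rose and 2 fell, against 3 and 4 with library size as the only scaling. Of all genes tested, 13.1% rose and 12.3% fell. Cited1 went from 5.63 (H) and 8.72 (G) to 37.2 (F4) and 33.7 (B4) scaled CPM, and Areg, an EGF receptor ligand, from 7.52 and 10.1 to 2.08 and 2.56. Their summed level was 713 (H), 673 (G), 682 (F4) and 577 (B4). The 5 rises were 2 without H. The count per cell used only Pgr, Esr1, Areg, Cited1, Ly6a and Foxa1 of this list. Cells with 2 or more UMIs of them were 3.04% (H), 3.58% (G), 6.00% (F4) and 8.09% (B4) of the alveolar cells. Without the low-milk cells, 3 members of the whole mature luminal list rose and 3 fell, and Cited1 was not called (log2 1.29, adjusted p = 0.209).

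Non-epithelial markers were scarce, and their calls stand beside a share of 25.4% called over all genes tested. The summed levels of the fibroblast, immune, endothelial and adipocyte lists were higher in both day 18.5 libraries than in both day 12.5 libraries, and those of the erythroid list overlapped. Fibroblast markers summed to 18.2 to 21.8 scaled CPM at day 12.5 and 42.4 to 54.3 at day 18.5, with 1 of 6 called (Dcn, from 9.24 and 15.2 to 31.8 and 22). Immune markers summed to 1.48 to 1.84 and 5.24 to 11.3, with 2 of 3 called, Cd3e and Lyz2, the second of which is also in the defence list. Endothelial and mural markers summed to 3.04 to 4.06 and 5.93 to 12.9, with Cdh5 and Rgs5 called of 5. Erythroid markers summed to 2.54 to 3.74 and 3.35 to 7.99, with Alas2 called of 2. In edgeR, Alas2 lost its call with library size as the only scaling (adjusted p = 0.0652) and with cells thinned to 1500 UMIs (0.0645). It also lost it with cycling cells left out (0.151). Adipocyte markers summed to 3.37 to 4.75 and 35.05 to 40.3: Fabp4 went from 3.82 (H) and 2.14 (G) to 31.9 (F4) and 38.0 (B4), and Plin4 from 0.769 and 1.08 to 2.77 and 1.97. Removing the alveolar cells that also met a non-epithelial rule (5, 2, 14 and 13 cells) gave 3444 calls in place of 3412. Dcn then lost its call (log2 0.97, adjusted p = 0.0848), as it did without the low-milk cells (log2 0.77, adjusted p = 0.191). Plin4 was at a log2 change of 1.06 (adjusted p = 0.0923) without the low-milk cells.

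How far the alveolar cells differed among themselves was described by grouping them on milk share, with levels taken as CPM of the UMIs outside the milk genes. The groups are ranges of a continuous score, so this is a description with no test. Cells under 10% were 29.1% (H), 28.8% (G), 9.59% (F4) and 13.7% (B4) of the alveolar cells, and cells from 25% to 50% were 9.69%, 11.4%, 61.4% and 51.3%. Cells from 10% to 25% held nearly all the rest at day 12.5.

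Fatty acid and triglyceride genes stood higher at higher milk share inside each of the 4 libraries. Cells under 10% numbered 604 (F4) and 361 (B4) at day 18.5, most of them the low-milk cells (469 and 265), so levels in that range are not compared between the stages. In cells from 25% to 50% the fat synthesis genes stood at 4059 (H), 3902 (G), 9702 (F4) and 10939 (B4) CPM, and in cells from 10% to 25% at 3001, 2830, 6054 and 4658. The day 18.5 cells were higher in both ranges, but milk shares within a range were not equal between the stages. Cidea was at 36.7 (H), 31.8 (G), 270 (F4) and 104 (B4) CPM in cells from 10% to 25% and at 135, 123, 843 and 958 CPM in cells from 25% to 50%. The milk defence genes in these cells stood at 16265, 16623, 28288 and 27598 CPM. ER genes stood at 7670 (H), 7555 (G), 9522 (F4) and 8309 (B4). In cells from 10% to 25% they stood at 6419, 6529, 8893 and 6235, with B4 below both day 12.5 libraries.

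The summed levels of both cell cycle lists were lower in both day 18.5 libraries in cells from 10% to 25% and from 25% to 50%. In cells from 10% to 25% the G2 and M phase list stood at 1519 (H), 1481 (G), 389 (F4) and 607 (B4) CPM. In cells from 25% to 50% the G2 and M phase list stood at 1176 (H), 1194 (G), 366 (F4) and 360 (B4) CPM, and the S phase list at 604, 606, 220 and 177. Mki67 overlapped between the stages in that range, at 23.4 (H), 21.3 (G), 19.3 (F4) and 37.9 (B4) CPM. Rspo1, a Wnt agonist expressed in luminal progenitors, ran the other way to milk share, and is named after its values were seen. It was at 445 (H) and 422 (G) CPM in cells under 10% and at 152 and 139 in cells from 25% to 50%. At day 18.5 it was highest in cells from 10% to 25%, at 183 (F4) and 433 (B4), and stood at 17.9 and 7.94 in cells over 50%. The levels of basal markers and Cited1 were highest in the day 18.5 cells under 10%. Cited1 stood there at 592 (F4) and 367 (B4) CPM against 16.3 and 2.08 in cells from 10% to 25%. The basal list stood at 13151 (F4) and 8317 (B4) CPM against 3062 and 762.

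**Figure D5:**
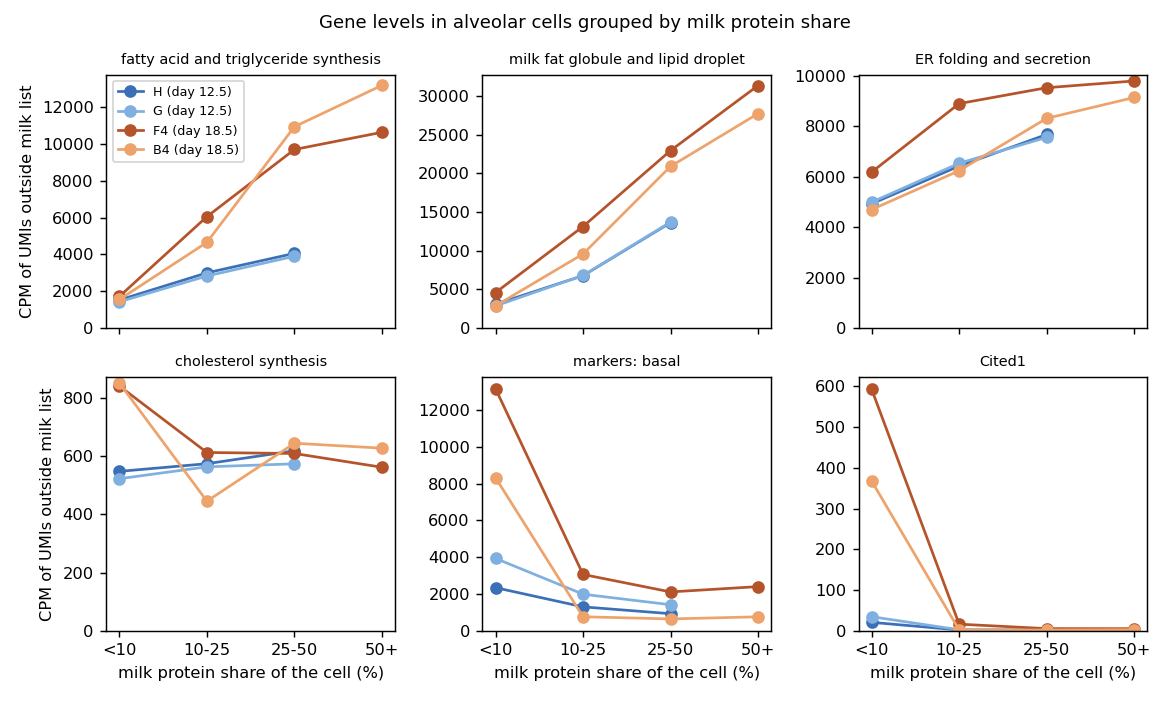
Level (y axis, CPM of UMIs outside the milk genes) of 4 synthesis and secretion lists, the basal marker list and Cited1 in alveolar cells grouped by milk protein share (x axis, %), 1 line per library. Fat synthesis and globule genes stood higher at higher milk share, and were higher at day 18.5 from 10% upwards, whereas basal markers and Cited1 peaked in the day 18.5 cells under 10%.

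To ask which changes differed between alveolar cells and the basal cells of the same libraries, the stage by class interaction was fitted with the library as a block. Of 14342 genes, 1419 (9.89%) were called, 729 with a greater and 690 with a smaller change in alveolar cells. Changes are compared with their sign, so a greater change is a larger rise or a smaller fall. This split depended on the scaling, since 258 of 4730 calls were greater in alveolar cells with library size alone, where the median interaction was -0.54. Without H it called 384 genes, without G 270, without F4 3540, and without B4 3200. In the ER list, 21 of 30 genes had a greater change in alveolar cells and none a smaller one, with a median interaction of 0.85 (all genes, -0.04), and its basal median was -0.40. With library size alone the counts were 9 and 1, and leaving out G or H gave 8 and 9 with none smaller. Dnajc3 went from 68.5 (H) and 65.6 (G) to 80.8 (F4) and 56.1 (B4) scaled CPM in basal cells, beside the alveolar rise given above (interaction of 1.05 ± 0.14 SE, adjusted p = 0.00941).

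Of the 9 milk protein genes, 0 were called in the interaction by edgeR (0 at an unadjusted p below 0.05). Without F4, 8 had a greater change in alveolar cells, and without B4, 6 had a smaller one. The basal level of the 9 genes as a share of their alveolar level had a median of 11.1% in H, 9.28% in G, 17.3% in F4 and 5.30% in B4, and lay between 15.03% and 23.6% for all 9 in F4. Alveolar and basal levels were scaled in separate fits, so such shares depend on the scaling. For Cidea it was 9.74%, 9.50%, 16.4% and 5.78%. Mfge8 and Rab18 departed from this pattern. In basal cells Mfge8 was at 322 (H), 310 (G), 549 (F4) and 389 (B4) scaled CPM, from 89.4% of the alveolar level in H down to 17.6% in B4. Rab18 was at 152, 144, 264 and 180 in basal cells, and both genes changed more in alveolar cells (interactions of 1.87 ± 0.30 and 1.70 ± 0.13 SE, adjusted p = 0.0261 and 0.00252).

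On the scaling of all 9 FVB/NJ libraries of the adult, pregnancy and lactation stages, the day 18.5 levels are placed as values only, since milk RNA fills the lactation libraries. Wap stood at 0.0667 to 19.0 scaled CPM in the 3 adult libraries, 721 and 816 at day 12.5, 28067 and 35916 at day 18.5, and 388346 and 575631 at lactation day 10. Csn1s2b stood at 12.9 and 10.8 at day 12.5, 239 and 425 at day 18.5, and 275857 and 383077 in lactation. These levels rest on TMM factors of 0.352 and 0.289 for the lactation libraries, against 1.03 and 0.994 at day 18.5. Car4 was highest at day 18.5, with 23.7 and 43.9 against 5.77 and 3.65 in lactation and at most 0.0871 in adults. Slc39a8 went from 2.99 and 12.3 at day 18.5 to 175 and 533 in lactation.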

How the data were processed

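Single-cell libraries were prepared with the 10x Genomics 3′ kit (v2), and the authors deposited raw UMI counts per gene and cell as sparse matrices, aligned to mm10 (GRCm38). Per the file headers the matrices came from Cell Ranger 3.0.2, whereas the submitters' processing notes name 3.1.0. Filtered barcodes were used as deposited, and annotation was taken from GENCODE M21, which matched 30934 of 31053 features. Counts of the cells meeting the rule were summed per library, and basal cells (more Krt5 and Krt14 than Krt8 and Krt18 UMIs, and 2 or more of the former) were treated likewise. The sums were fitted with edgeR 4.0.16 (R 4.3.3; TMM, filterByExpr, robust quasi-likelihood test, Benjamini-Hochberg adjustment), with DESeq2 1.42.0 as an alternative. The 10 genes of the rule were left out of the genes tested. The stage by class interaction had the library as a block. Shares were compared over libraries by exact two-sided permutation, and intervals and floors cover counting error only. Doublets called by Scrublet (scanpy 1.11.5; 0.662% to 3.27% of cells) were kept, and were removed in an alternative.

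The text names the 12 largest rises and 8 largest falls with non-overlapping libraries and at least 20 scaled CPM in the higher stage, up to 4 called genes per list with the largest changes, all milk proteins and the rule genes. The values of 2 genes that this rule names are not reported here. Members, lists and rules were chosen with earlier results of these data known. In simulated sums of 13220 genes, the late against mid fit recovered 66.0% of 2-fold and 97.0% of 4-fold changes with 3.61% false calls, and the interaction fit 21% and 81.4% with 2.91%. The simulation gave all libraries the same spread, changed few genes, and drew alveolar and basal cells independently. In the data 25.4% of genes were called and the day 18.5 libraries differed more, so these rates may not hold for them. Library totals were 42983751 to 71602020 UMIs.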

Additional observations from a re-analysis of the deposited data

Results flagged for a closer look

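The change between the stages differed between alveolar and basal cells of the same libraries for 13 of the genes reported here that the fixed rule names, by the interaction test in edgeR with the library as a block. The rule gave 100 tested genes, most of them named for their alveolar change, and 9.89% of all genes passed the interaction test. Values are the alveolar minus the basal log2 change, and all 13 were positive, a direction that is not independent of that choice. Transporters and globule genes included Slc39a8 at 4.44 ± 0.39 SE (adjusted p = 0.00298), Slc2a1 at 0.73 ± 0.14 SE (adjusted p = 0.0248), Mfge8 at 1.87 ± 0.30 SE (adjusted p = 0.0261) and Rab18 at 1.70 ± 0.13 SE (adjusted p = 0.00252). Of the ER genes, Dnajc3 differed by 1.05 ± 0.14 SE (adjusted p = 0.00941) and Atf6 by 0.83 ± 0.17 SE (adjusted p = 0.0267). Ccdc74a differed by 3.31 ± 0.60 SE (adjusted p = 0.0261), Irs1 by 1.07 ± 0.17 SE (adjusted p = 0.0135), Ier3 by 0.94 ± 0.15 SE (adjusted p = 0.0151) and Lcn2 by 0.77 ± 0.14 SE (adjusted p = 0.0191). With library size as the only scaling, 0 genes of the lactose list and 0 of the immediate early list had a greater change in alveolar cells. The calls of Slc2a1 and Ier3 were therefore lost in it. Cited1 differed by 1.44 ± 0.25 SE (adjusted p = 0.0183), and its alveolar level was concentrated in the low-milk cells. The mitochondrial genes mt-Co1 and mt-Cytb differed by 0.64 ± 0.16 SE (adjusted p = 0.0450) and 0.64 ± 0.13 SE (adjusted p = 0.0257). Of 13 mitochondrial genes 8 passed the interaction test, and 0 passed with library size as the only scaling (median 0.01), without H or without G. Mki67, named outside that rule, differed by 1.21 ± 0.23 SE (adjusted p = 0.0228). Basal cells were shallower than alveolar cells in each library (median UMIs of 3226 against 7119 in H, 3412.5 against 7347 in G, 1959 against 6527 in F4 and 4002 against 12224.5 in B4), and the part of depth and free RNA in these differences was not tested.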

How the results depend on the processing

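The late against mid comparison called 3412 genes, 5591 with library size as the only scaling and 5177 with no filter on low counts. It called 74 with 9 libraries in the fit and 884 with 8 libraries (P7 left out). With cells thinned to 1500 UMIs it called 2238, and 2208 with the cells that counted as cycling before thinning left out. Leaving out 1 library gave 977 to 6920 calls, the lone library of a stage then being assumed to vary like the other stage. The interaction called 1419 genes, 4730 with library size only, 2229 with no filter and 270 to 3540 with 1 library left out. DESeq2 called 3364 genes, and 2977 were among the 3412. With Trf left out of the rule markers, 3157 genes were called and 2967 were among the 3412. Of 95 named called genes tested in that fit, 8 lost their call. The cycling share differed by -20.6 points, and by -29.1 with 2 or more UMIs, -12.0 with 5 or more and -44.7 without thinning, with -21.0 to -20.1 over libraries left out. The milk share difference of 20.1 points ran from 19.3 to 20.9. The cause of these shifts was not tested. Of 97 named called genes, 0 reversed under any alternative in edgeR or DESeq2, 90 lost their call with 9 libraries, 53 with 8, 37 without H and 34 without G. The study's replicate numbers were not shown to pair the libraries (correlation of deviations 0.217 over 3904 genes, on 2 pairs), and the replicate block gave 4105 calls and ended 2 named calls. Alternatives removing non-epithelial, mature luminal or low-milk cells were added after seeing the data (3444, 3214 and 2974 calls). With 2 libraries per stage, small changes are beyond the precision of the fits.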
